A study of Mus musculus with 2 samples.

Results

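The 44 genes whose symbols name a collagen chain (Col, a type number, a, a chain number) were followed across the stromal classes of inguinal white fat (iWAT, which lies under the skin). They were 44 of the 31053 genes counted in each library. Single-nucleus RNA sequencing was made from iWAT of male mice that were fed a Western diet, with the lymph node removed before nuclei were prepared. 1 library came from 3 pooled mice of the group with genotype Lexis WT (Lexis-AdWT, floxed at Lexis without Cre) and 1 from 3 pooled mice labelled Lexis KO (Lexis-AdKO, the same floxed allele with Adipoq-cre). Lexis is a long noncoding RNA, both groups carried the floxed allele on a C57BL/6 background, and the age of the mice was not given in the labels. Adipoq-cre is active in adipocytes, and the other classes come from the same tissue. The deposited file names carried the opposite genotype for both libraries, and Lexis was not analysed here, so each library is named by its label only, as labelled WT or labelled KO.

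Collagens are secreted proteins built from 3 α chains wound into a triple helix. Fibrillar collagens form the banded fibrils of connective tissue, type 4 chains form the sheet-like network of basement membranes, and type 6 chains form beaded filaments at the border of both. FACIT collagens sit on the surface of fibrils, and the multiplexins, types 15 and 18, bridge basement membranes and fibrils. In adipose tissue, fibroblast-like progenitors are known as the main source of fibrils, whereas adipocytes, mural cells and endothelial cells each rest on a basement membrane.

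After the filters (at least 500 genes and at most 5% mitochondrial UMIs per nucleus, doublets removed) 3503 nuclei labelled WT and 2852 labelled KO remained, with medians of 1195 and 3879 unique molecular identifiers (UMIs, one per captured RNA molecule) per nucleus. Classes were named from marker genes that include no collagen, and the collagens were left out of the clustering. The interstitial progenitor-like subclusters passed 12 of 12 markers (among them Pi16 and Dpp4), the preadipocyte-like subclusters 10 to 12 of 16, the adipocyte-like clusters 11 and 12 of 12, the mural-like cluster 12 of 12, the endothelial-like cluster 10 of 12 and the lymphoid stroma-like cluster 9 of 13. The classes are called below without the suffix. They held 120 and 395 interstitial progenitor, 176 and 390 preadipocyte, 268 and 890 adipocyte, 10 and 44 mural, 94 and 122 endothelial and 151 and 1 lymphoid stroma nuclei in the libraries labelled WT and KO. The lymphoid stroma thus came from the library labelled WT and may be that library rather than a cell type. That library also held 2101 lymphocyte-like nuclei although the lymph node had been removed, against 106 in the library labelled KO, and 10 cell barcodes were shared by the filtered nuclei of both libraries. Within the interstitial progenitor and adipocyte classes nearly all nuclei of each library lay in subclusters of their own, as did most preadipocytes (1 preadipocyte subcluster, with 36 and 116 nuclei, was shared), so library and subcluster cannot be told apart there. The difference between genotypes rested on 1 library each and has no replicate check, and every interval given is a 95% interval that covers counting error only.

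The promoters of 5 members are shown because the results below turn on these genes: the fibrillar chains Col1a2, Col3a1 and Col5a3, and the pair Col4a1 and Col4a2. The start sites used for this pair lay 21 bases apart on opposite strands of chromosome 8. The Col4a1 and Col5a3 spans reach beyond the start sites used here, to 11312889 and 20815117, so 1 start site is shown per gene and others exist. The windows (RefSeq, GRCm38.p6) run from 250 bases before to 50 bases after the start site and were chr6:4505368-4505667 (plus strand) for Col1a2, chr1:45311288-45311587 (plus) for Col3a1, chr9:20815018-20815317 (minus) for Col5a3, chr8:11312777-11313076 (minus) for Col4a1 and chr8:11312555-11312854 (plus) for Col4a2, each written 5′ to 3′ on the strand of its gene. Capitals mark 3 motifs on either strand. The TATA box was searched as TATAAA. The other motifs were the CCAAT box, searched by those 5 letters, and the GC box, searched as GGGCGG.
Col1a2: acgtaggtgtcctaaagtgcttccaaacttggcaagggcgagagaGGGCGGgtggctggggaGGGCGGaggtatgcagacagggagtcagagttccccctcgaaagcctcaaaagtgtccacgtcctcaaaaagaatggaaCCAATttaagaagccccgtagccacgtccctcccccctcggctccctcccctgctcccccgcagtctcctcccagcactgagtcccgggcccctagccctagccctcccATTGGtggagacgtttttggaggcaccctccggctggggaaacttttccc
Col3a1: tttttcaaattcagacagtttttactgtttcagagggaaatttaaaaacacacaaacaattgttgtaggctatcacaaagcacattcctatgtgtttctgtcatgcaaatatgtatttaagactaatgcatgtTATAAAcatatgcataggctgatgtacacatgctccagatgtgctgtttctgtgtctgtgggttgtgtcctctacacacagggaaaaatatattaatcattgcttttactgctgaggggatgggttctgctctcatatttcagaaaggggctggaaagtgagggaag
Col5a3: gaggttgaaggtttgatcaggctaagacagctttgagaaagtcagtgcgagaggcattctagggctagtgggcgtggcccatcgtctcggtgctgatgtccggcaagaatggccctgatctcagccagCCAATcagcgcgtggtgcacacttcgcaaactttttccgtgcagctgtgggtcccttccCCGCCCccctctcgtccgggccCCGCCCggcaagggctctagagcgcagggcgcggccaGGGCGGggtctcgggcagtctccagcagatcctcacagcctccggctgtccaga
Col4a1: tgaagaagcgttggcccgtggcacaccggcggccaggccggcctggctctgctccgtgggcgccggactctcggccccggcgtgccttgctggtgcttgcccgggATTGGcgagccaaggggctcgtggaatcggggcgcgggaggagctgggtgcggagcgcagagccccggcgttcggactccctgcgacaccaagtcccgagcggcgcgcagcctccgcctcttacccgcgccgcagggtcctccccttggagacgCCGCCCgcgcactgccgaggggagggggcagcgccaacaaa
Col4a2: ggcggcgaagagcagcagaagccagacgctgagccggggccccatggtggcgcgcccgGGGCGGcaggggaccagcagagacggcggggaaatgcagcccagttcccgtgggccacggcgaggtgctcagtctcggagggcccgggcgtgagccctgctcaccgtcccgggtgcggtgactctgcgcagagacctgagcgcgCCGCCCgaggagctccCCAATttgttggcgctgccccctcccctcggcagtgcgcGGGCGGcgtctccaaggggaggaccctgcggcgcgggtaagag
The windows of Col4a1 and Col4a2 shared 78 bases. Promoter windows were matched for 35 members, in 38 windows. GGGCGG occurred in 23 of the 38 windows (60.5%), against 35.7% of all 32851 promoter windows of the same length. CCAAT occurred in 13 of 38 (34.2%, against 37.4%), and TATAAA in 5 of 38 (13.2%, against 13.6%). No marked match overlapped another within its own window. A GC box in the bases shared by the Col4a1 and Col4a2 windows was marked in both, so the same site counts for both windows. A match is a description of the sequence only. The median GC content was 59.8% over the members' windows and 52.7% over all windows.

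Preadipocytes held most of the collagen message. Summed over the 44 members, the level in preadipocytes was 33084 CPM (UMIs per 1000000 UMIs of the class; 32613 to 33561) in the library labelled WT and 40469 (40192 to 40748) in the library labelled KO. Interstitial progenitors, the Pi16 and Dpp4 bearing progenitors, stood at 10137 and 6962 CPM. Mural cells stood at 11659 CPM (9948 to 13580.1, from 10 nuclei) and 6485, adipocytes at 4034 and 2712, endothelial cells at 3317 and 3314, and lymphoid stroma at 3332 CPM in the library labelled WT. Preadipocytes made up 21.5% and 21.2% of the nuclei of the 6 classes and gave 70.9% and 70.5% of their collagen UMIs. Of the preadipocyte collagen UMIs, 6872 of 18775 and 50047 of 81632 lay in 1 subcluster (p2, described below). That subcluster also passed interstitial progenitor markers, so the preadipocyte share depends on its assignment. Lymphocytes, which should not make collagen and so measure the free RNA in the droplets, still showed 1859 and 1222 CPM, myeloid nuclei 1457 and 977, and myocytes 779 CPM in the library labelled KO. A member was therefore called above lymphocytes where both its CPM and its UMIs per nucleus exceeded those of the lymphocytes of the same library beyond counting error.

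**Figure D1:**
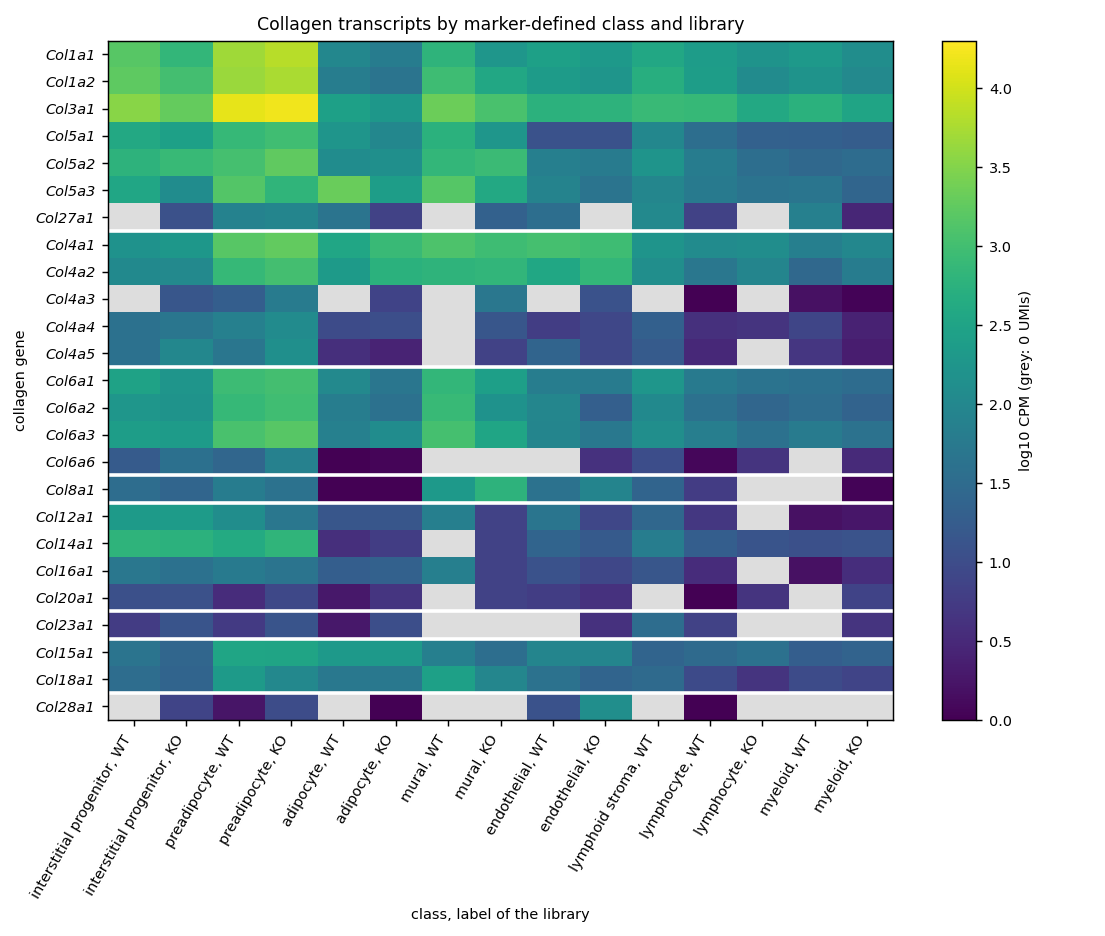
Levels of the 25 collagen genes with at least 50 UMIs, as log10 CPM of summed UMIs (colour) in each class (columns, by library label) with lymphocyte and myeloid nuclei as the level of free RNA, and white lines between structural groups. The preadipocyte columns are the brightest for the fibrillar genes, except for Col5a3 and Col27a1 in the library labelled WT. Col3a1 reaches 16311 CPM in preadipocytes labelled KO.

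Of the 44 members, 25 had at least 50 UMIs over the classes and held 99.8% of the 142220 collagen UMIs of both libraries. These were 7 of 11 fibrillar, 5 of 6 type 4, 4 of 6 type 6, 4 of 9 FACIT, both multiplexin, 1 of 3 short-chain, 1 of 4 transmembrane and 1 of 2 other members. The remaining 19 were Col2a1, Col4a6, Col6a4, Col6a5, Col7a1, Col8a2, Col9a1, Col9a2, Col9a3, Col10a1, Col11a1, Col11a2, Col13a1, Col17a1, Col19a1, Col22a1, Col24a1, Col25a1 and Col26a1, with at most 47 UMIs each. Col9a1, a chain of cartilage, was the member with 0 UMIs.

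The major fibril chains were the clearest preadipocyte transcripts. Col3a1, the chain of type 3 collagen, measured 13771 CPM (13468 to 14079.9) and 16311 CPM (16136 to 16489) in preadipocytes of the libraries labelled WT and KO. In interstitial progenitors it measured 3444 (3174 to 3729.9) and 1947 (1872 to 2024), and in mural cells 2119.8 (1430.2 to 3026) and 1170.0 (998 to 1363). The order preadipocyte, interstitial progenitor, mural was the same in both libraries, and the intervals of the first and the second class did not overlap. In endothelial cells Col3a1 measured 574 and 596 CPM, in lymphoid stroma 819 and in adipocytes 275 (245 to 309) and 188 (179 to 197). The lymphocyte values were 767 and 391 CPM, so the adipocyte values lay below the level of free RNA by CPM, whereas the UMIs per nucleus were 1.08 and 1.82 in adipocytes and 0.938 and 0.840 in lymphocytes. By both measures the endothelial value was above lymphocytes in the library labelled KO only. Col1a1 and Col1a2, which together make type 1 collagen, followed the same order.

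Col1a1 measured 4874 and 7014 CPM in preadipocytes and 1513 and 709.8 CPM in interstitial progenitors. Col1a2 measured 4576 and 5604 CPM in preadipocytes and 1685 and 1051 CPM in interstitial progenitors. In adipocytes Col1a1 measured 96.2 and 64.3 CPM and Col1a2 66.7 and 44.4 CPM, against 238 and 163 CPM (Col1a1) and 244 and 119 CPM (Col1a2) in lymphocytes. By CPM the adipocyte levels of all 3 major fibril chains were thus under the lymphocyte level in both libraries, and none passed the rule that asks for both CPM and UMIs per nucleus. The UMIs of Col1a1 per UMI of Col1a2 were 1.07 (1.01 to 1.12) and 1.25 (1.22 to 1.28) in preadipocytes, and 0.898 (0.758 to 1.06) and 0.675 (0.620 to 0.735) in interstitial progenitors, so the intervals overlapped in the library labelled WT, and preadipocytes had relatively more of the α1 chain beyond counting error in the library labelled KO.

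The type 5 chains, which start fibrils and set their width, were not used alike. Col5a1 measured 749 and 949 CPM in preadipocytes, 399.8 and 283 in interstitial progenitors and 178 and 96.7 in adipocytes, against at most 35.8 in lymphocytes. Col5a2, which lies 24.6 kb from Col3a1 on chromosome 1, measured 1069.6 and 1775 CPM in preadipocytes, 599.7 and 805 in interstitial progenitors and 707 and 849 in mural cells. In adipocytes Col5a2 stood at 122 and 139 CPM, above the 63.4 and 35.2 CPM of lymphocytes. The type 5 chains were thus above free RNA in adipocytes, where the type 1 and 3 chains were not.

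Col5a3 (chr9:20770050-20815117), the third type 5 chain, was highest in adipocytes in the library labelled WT, with a lead over mural cells (1.42, 0.926 to 2.30) within counting error, and in preadipocytes in the library labelled KO. In adipocytes it measured 2106 CPM (2019 to 2195) in the library labelled WT and 247 CPM (237 to 258) in the library labelled KO. In preadipocytes it measured 1404 (1309 to 1505) and 660.3 (625 to 697), in mural cells 1484 (919 to 2268) and 392 (296 to 511), and in interstitial progenitors 354 and 124. Lymphocytes gave 56.1 and 44.0 CPM, so the adipocyte level was above free RNA in both libraries. The adipocyte ratio of the library labelled KO over the library labelled WT was 0.117 (0.110 to 0.125), and it was 0.470 (0.430 to 0.514) in preadipocytes, 0.350 (0.260 to 0.478) in interstitial progenitors, and 0.264 (0.157 to 0.460) in mural cells. The value was thus below 1 in each of these classes, and the adipocyte interval lay under those of the other 3. At least 1 Col5a3 UMI was seen in 238 of 268 adipocyte nuclei (88.8%) of the library labelled WT and in 551 of 890 (61.9%) of the library labelled KO, with medians of 4.0 and 1.0 UMIs, although the nuclei of the library labelled KO were deeper (medians of 7856.5 against 3123.5 UMIs).

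The low Col5a3 level was seen in each adipocyte subcluster of the library labelled KO: 326 CPM in subcluster a0 (369 nuclei), 130.3 in a2 (268 nuclei, led by Cidea and Ppara) and 125 in a3 (249 nuclei). The adipocyte nuclei of the library labelled WT formed 1 subcluster, a1. A further subcluster of the adipocyte-like clusters, with 150 nuclei labelled WT, was kept out of the class. Against the other adipocyte subclusters it passed 11 lymphocyte, 9 myeloid, 8 interstitial progenitor, 6 preadipocyte, 5 fibroblast and 0 adipocyte markers, and it held Col5a3 at 1277 CPM. Adipocyte over preadipocyte, the Col5a3 ratio was 1.50 (1.38 to 1.63) in the library labelled WT and 0.374 (0.349 to 0.401) in the library labelled KO. The class with more Col5a3 was therefore adipocytes in the first library and preadipocytes in the second.

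**Figure D2:**
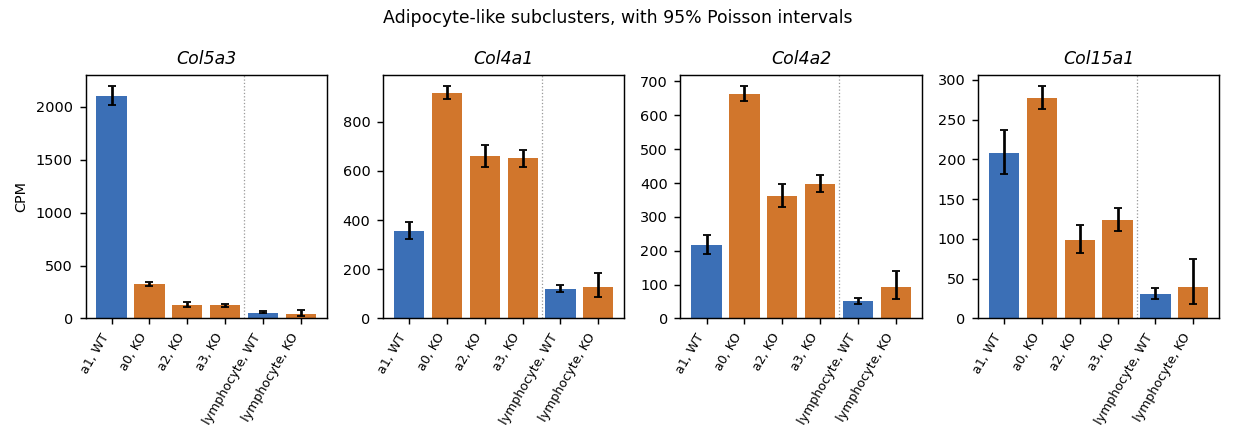
CPM of Col5a3, Col4a1, Col4a2 and Col15a1 (bars, with 95% Poisson intervals) in the adipocyte subclusters a1 (library labelled WT) and a0, a2 and a3 (library labelled KO), beside the lymphocytes of each library. Col5a3 is highest in a1 at 2106 CPM, and Col4a1 and Col4a2 are highest in a0 at 917 and 663 CPM.

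Col27a1, a fibrillar chain known from cartilage, was low throughout. It measured 79.3 and 90.7 CPM in preadipocytes, 45.7 and 7.08 CPM in adipocytes and 104 CPM in lymphoid stroma of the library labelled WT. Of the 61 Col27a1 UMIs in adipocytes labelled KO, 51 lay in subcluster a2, where the level was 41.8 CPM, close to the 45.7 CPM of the library labelled WT. The UMIs came from few nuclei, 20 of 268 and 21 of 890 adipocytes, and 55.7% of those labelled KO came from 3 nuclei. Myeloid nuclei of the library labelled WT also held it, at 74.7 CPM.

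The basement membrane chains Col4a1 and Col4a2, which pair in 1 triple helix, were shared by preadipocytes, mural cells, endothelial cells and adipocytes. Col4a1 measured 1552 CPM (1452 to 1658) and 1841 (1782 to 1901) in preadipocytes, 1272 (754 to 2010.2) and 920.3 (768 to 1094) in mural cells, and 1069.7 (919 to 1238) and 922 (806 to 1051) in endothelial cells. In endothelial cells labelled WT, 97 of the 179 Col4a1 UMIs and 38 of the 62 Col4a2 UMIs came from 3 of 94 nuclei, so values that use them rest on few nuclei. Mural and endothelial Col4a1 levels did not differ beyond counting error, with ratios of 1.19 (0.689 to 1.93) and 0.998 (0.797 to 1.24). In interstitial progenitors Col4a1 stood at 154 and 191 CPM, close to the 121 and 128 CPM of lymphocytes. Preadipocytes were thus among the highest classes for this chain, and interstitial progenitors were above lymphocytes in the library labelled KO only.

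In adipocytes both chains had more message in the library labelled KO. Col4a1 measured 356 CPM (321 to 394) and 810.3 (791 to 829), a ratio of 2.27 (2.05 to 2.53). Col4a2 measured 217 and 550.0 CPM, a ratio of 2.53 (2.22 to 2.90). Both were above lymphocytes in both libraries, and the ratio over the adipocytes labelled WT was above 1 in each adipocyte subcluster labelled KO, for Col4a1 at 2.57 in a0, 1.85 in a2 and 1.82 in a3. The ratio of the libraries rose with the genomic span of a gene. Genes were put in 10 groups by span, and a ratio against genes of like span used the group median. It was 1.35 for Col4a1 and 0.897 for Col4a2. Col4a1 (114 kb) fell in a group with a median span of 98.3 kb and a median log2 ratio of 0.76. Col4a2 (136 kb) fell in the group of longest genes, at 220.3 kb and 1.50. The log2 ratio of Col4a2, 1.34, lay between those medians, so its direction after correction depends on the group and was not settled. At least 1 Col4a1 UMI was seen in 61.9% and 92.0% of adipocyte nuclei before depth was made equal.

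Type 4 chains made up 14.5% of the collagen UMIs of adipocytes labelled WT and 50.9% of those labelled KO, while fibrillar chains made up 71.7% and 29.0%. In preadipocytes the fibrillar share was 80.2% and 80.1%, the type 4 share 7.39% and 7.96% and the type 6 share 8.63% and 8.86%. In endothelial cells the type 4 share was 44.3% and 50.2%. With the UMIs labelled KO corrected for gene span, the type 4 share labelled KO was 34.8% in endothelial cells and 5.47% in preadipocytes. Both lay under the shares labelled WT, so the direction turned. The adipocyte shares moved with Col5a3 and with gene span: without Col5a3 the type 4 share was 30.4% and 56% and the fibrillar share 40.8% and 21.9%, and with the UMIs labelled KO corrected for span the type 4 share there was 41% and the fibrillar share 36.8%. UMIs of Col4a1 per UMI of Col4a2 were 2.08 (1.85 to 2.34) and 1.75 (1.66 to 1.85) in preadipocytes, 1.64 and 1.47 in adipocytes, and 2.89 (2.15 to 3.92, mostly UMIs of few nuclei) and 1.29 (1.06 to 1.58) in endothelial cells.

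The other type 4 chains, which form the networks of kidney and smooth muscle basement membranes, were low. Col4a3 and Col4a4, a pair whose genes overlap at their starts on chromosome 1, measured 19.4 and 61.0 CPM (Col4a3) and 75.8 and 118 CPM (Col4a4) in preadipocytes. Col4a5 measured 49.3 and 136 CPM in preadipocytes and 40.0 and 98.6 CPM in interstitial progenitors, and lay at or under 23.9 CPM in adipocytes, mural and endothelial cells. Its neighbour on the X chromosome, Col4a6, was named after its values were seen: it had 0 and 30 UMIs in preadipocytes. In adipocytes Col4a3 had 0 and 62 UMIs. Neither was above lymphocytes in the library labelled KO. Against genes of like span, with the 0 set to 3 UMIs, the ratios were 0.886 and 0.891. Col4a3 (135 kb) was set against the same group of longest genes as Col4a2, so its ratio depends on the group. Col4a3, Col4a4 and Col4a5 were thus highest in preadipocytes in both libraries, at levels far under those of Col4a1.

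**Figure D3:**
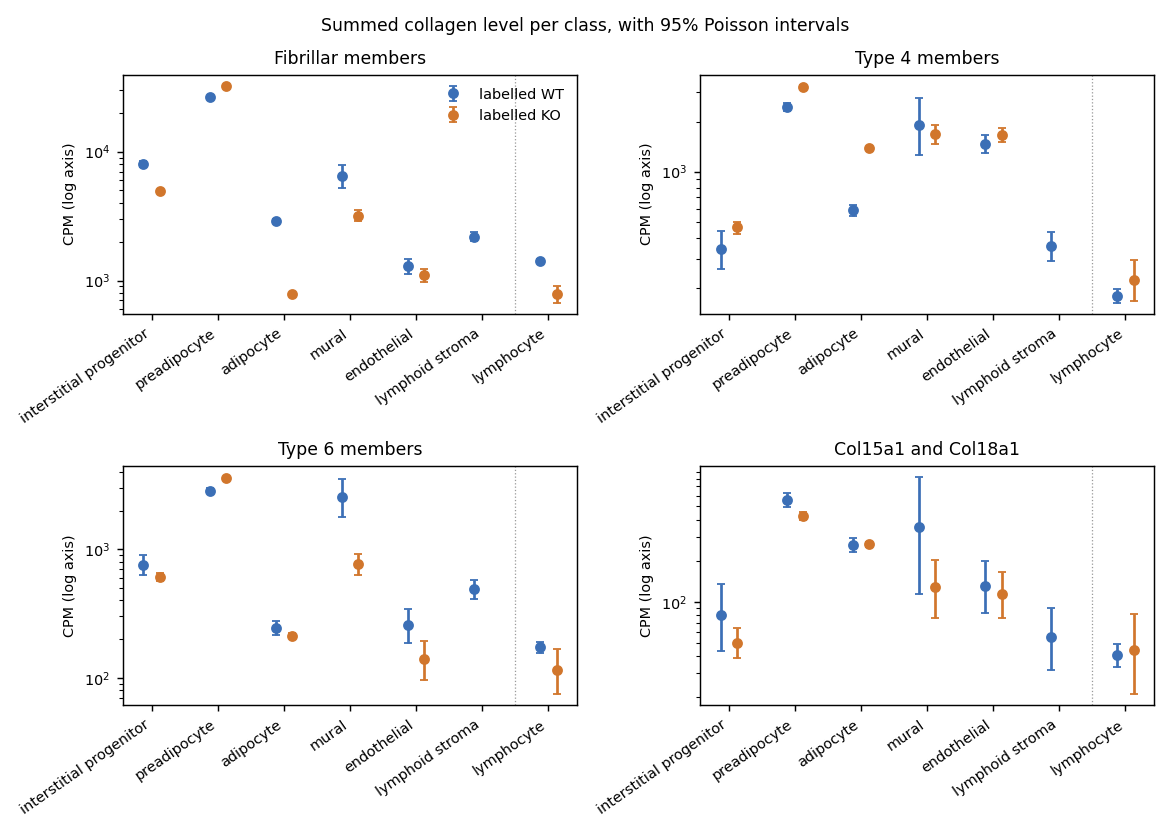
Summed CPM (log axis) of fibrillar, type 4, type 6 and multiplexin members in each class and in lymphocytes, for the libraries labelled WT (blue) and KO (orange), with 95% Poisson intervals. Preadipocytes stand highest in the first 3 panels, and adipocytes labelled KO lie at the lymphocyte level for fibrillar members (787 and 783 CPM) and above it for type 4 members (1381 and 224 CPM).

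The type 6 chains Col6a1, Col6a2 and Col6a3, which assemble into 1 filament, were highest in preadipocytes of both libraries, except that Col6a2 labelled WT measured 777 CPM in mural cells (11 UMIs) against 758 in preadipocytes. Col6a3 measured 1167 and 1524 CPM in preadipocytes, 1059.9 (593 to 1748) and 342 (252 to 454) in mural cells, 251 and 227 in interstitial progenitors, and 73.4 and 122 in adipocytes, against 68.9 and 39.6 in lymphocytes. Col6a1 measured 895 and 1036 CPM in preadipocytes and 104 and 49.3 CPM in adipocytes, and Col6a2 measured 758 and 943 and then 66.7 and 40.5. In adipocytes the UMIs of Col6a3 per UMI of Col6a1 were 0.706 labelled WT and 2.48 labelled KO, but Col6a3 labelled WT and Col6a1 and Col6a2 labelled KO were not above lymphocytes there, and against genes of like span the ratios of the libraries were 0.987 (Col6a3) and 0.571 (Col6a1). Col6a6, a chain that can stand in for Col6a3, measured 26.4 and 77.3 CPM in preadipocytes, 17.1 and 38.5 in interstitial progenitors and at most 10.4 CPM in the other classes.

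Taken over whole classes, the FACIT gene Col12a1 was the member highest in interstitial progenitors in both libraries, although at a clustering resolution of 1.0 no member was highest there in the library labelled WT. Col12a1, a chain that binds to the fibril surface, measured 223 and 225 CPM in interstitial progenitors and 130.4 (102 to 164) and 51.1 (41.7 to 61.9) in preadipocytes. Interstitial progenitor over preadipocyte, its ratio was 1.71 (1.13 to 2.55) and 4.41 (3.51 to 5.57), from 23 of 120 and 103 of 395 interstitial progenitor nuclei with a UMI. In that class 35.9% and 28.4% of its UMIs came from 3 nuclei of the library, so these values rest on few nuclei. The preadipocyte subcluster p2 described below held Col12a1 at 330.2 CPM in the library labelled WT. Col14a1, a related chain, measured 628 CPM (516 to 757) and 584 (543 to 627) in interstitial progenitors and 423 (371 to 479.9) and 647 (613 to 684) in preadipocytes, so the order of these classes differed between the libraries. Both genes were at or under 70.7 CPM in every other class. FACIT chains made up 9.01% and 12.4% of the collagen UMIs of interstitial progenitors and 1.87% of those of preadipocytes in both libraries. Col16a1, a further FACIT chain, measured 51.4 and 40.1 CPM in interstitial progenitors, 59.9 and 44.6 in preadipocytes and 19.1 and 21.9 in adipocytes. Col20a1, the fourth named FACIT gene, had at most 39 UMIs in any class.

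The multiplexins were above lymphocytes in both adipocytes and preadipocytes of both libraries. Col15a1, found where basement membranes meet fibrils, measured 208 CPM (181 to 237) and 212 (202 to 222) in adipocytes, a ratio of 1.02 (0.886 to 1.18) that became 0.604 against genes of like span, and 337 (291 to 388) and 326 (301 to 352) in preadipocytes. Interstitial progenitors held Col15a1 at 45.7 and 26.2 CPM, against 31.1 and 39.6 in lymphocytes, so the preadipocyte and interstitial progenitor classes stood apart. Col18a1, the chain from which endostatin is cut, measured 222 CPM (185 to 264) and 102 (88.7 to 117) in preadipocytes and 52.4 and 51.8 in adipocytes. Its preadipocyte ratio was 0.460 (0.367 to 0.579), but it was 1.22 where a finer clustering left 23 and 103 nuclei in that class.

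Few of the small groups gave enough UMIs to place. Col8a1, a short-chain collagen of vessel walls, measured 592 CPM (472 to 734) in mural cells labelled KO, next to 85.7 CPM in endothelial cells, and its 83 mural UMIs came from 14 of 44 nuclei, with 61.4% of them in 3 nuclei. In the library labelled WT mural cells held 3 Col8a1 UMIs. Col28a1, a chain known from glia and nerve, measured 131 CPM (89.3 to 184) in endothelial cells labelled KO, from 32 UMIs in 15 of 122 nuclei, and had 2 UMIs labelled WT. Col23a1, a transmembrane chain, measured at most 34.7 CPM in any class. Col13a1, another transmembrane chain that was chosen after its values were seen, had 14 of its 20 UMIs in mural cells, 13 of them in the library labelled KO (92.7 CPM). These placements rest on few nuclei.

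Counted over the members with at least 20 UMIs in a library, preadipocytes were the class with the highest CPM for 13 of 21 members in the library labelled WT, where 7.13% of all 10363 genes peaked in preadipocytes, and for 21 of 27 members in the library labelled KO, where 13.7% of all 14435 genes did. The lead over the next class exceeded counting error for 4 of the 13 and 18 of the 21. The 4 were Col1a1, Col1a2, Col3a1 and Col15a1, and for the other 9 the next class was mural cells (6 members) or interstitial progenitors (3 members). Mural cells were highest for 4 of 21 members in the library labelled WT (26.7% of all genes), each by 11 or fewer mural UMIs, and for Col8a1 alone in the library labelled KO (21.9%). Interstitial progenitors led for 2 (13.7%) and 3 (17%) members, adipocytes for Col5a3 (14.4%) and for 0 (21.9%), lymphoid stroma for Col27a1 (14%), and endothelial cells for 0 (24%) and 2 (25.4%). Of the 21 members counted in both libraries, 15 peaked in the same class. The others were Col5a3, Col6a2, Col14a1, Col16a1, Col18a1 and Col27a1. The share of all genes that peaked in the same class was not counted, so this count is a description only.

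Pairs of classes were then set against each other within each library. Interstitial progenitor over preadipocyte, the ratio was at most 0.5 for 12 of 20 members in the library labelled WT (11.5% of all genes) and for 18 of 26 in the library labelled KO (9.67%), and for Col3a1 it was 0.25 and 0.119. It was at least 2 for 0 members in the library labelled WT (9.33% of all genes) and for Col12a1 alone in the library labelled KO (7.94%). Adipocyte over preadipocyte, the ratio was at most 0.5 for 17 of 20 members (22%) and 21 of 27 (22%). Mural over endothelial, it was at most 0.5 for 0 of 10 members (17.3%) and 2 of 14 (22.4%), Col15a1 and Col28a1. It was at least 2 for 8 of 10 members (13.3%) and 8 of 14 (15.5%). Among these members the endothelial level was above lymphocytes for Col6a2 alone in the library labelled WT and for Col8a1 alone in the library labelled KO, so the other ratios have a denominator that was not told apart from free RNA. Lymphoid stroma over preadipocyte, it was at most 0.5 for 19 of 20 members in the library labelled WT (11.5%), with Col27a1 as the exception at 1.31 (0.799 to 2.13).

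Members above lymphocytes, among those with at least 20 UMIs in a class and library, numbered 20 of 20 and 22 of 25 in preadipocytes, where 28% and 18.8% of all genes passed the same rule, and 11 of 12 and 17 of 20 in interstitial progenitors (39.5% and 22.7%). They numbered 11 of 15 and 9 of 23 in adipocytes (29.9% and 14.5%), 2 of 2 and 11 of 12 in mural cells (74.1% and 45.3%), 2 of 5 and 5 of 8 in endothelial cells (35.6% and 33.2%), and 11 of 12 in lymphoid stroma (27%). In adipocytes, Col4a1, Col4a2, Col5a1, Col5a2, Col5a3, Col15a1, Col16a1 and Col18a1 were above lymphocytes in both libraries. In endothelial cells, Col4a1 and Col4a2 were. A level that did not pass this rule was not read as expression.

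The libraries were compared within each class by the same size rule, a ratio (labelled KO over labelled WT) of at least 2 or at most 0.5 among members with at least 20 UMIs over both. In interstitial progenitors 2 of 20 members were at least 2 (26.2% of all genes), Col4a5 and Col6a6. At most 0.5 were 2 (13.1%), Col1a1 at 0.469 (0.409 to 0.540) and Col5a3. Against genes of like span the Col1a1 ratio was 0.613, so it was no longer at most 0.5. In preadipocytes 6 of 25 were at least 2 (24.1%), Col4a3, Col4a5, Col4a6, Col6a6, Col23a1 and Col28a1, and 3 were at most 0.5 (11.6%), Col5a3, Col12a1 and Col18a1. In adipocytes 5 of 23 were at least 2 (26.1%), Col4a1, Col4a2, Col4a3, Col20a1 and Col23a1. In the same class 3 were at most 0.5 (15%), Col5a3, Col6a1 and Col27a1. Of those at least 2, Col4a6, Col23a1 and Col28a1 in preadipocytes labelled KO were not above lymphocytes. Nor were Col4a3, Col20a1 and Col23a1 in adipocytes labelled KO. The intervals of Col6a6 in interstitial progenitors, of Col20a1 in adipocytes and of Col23a1 and Col28a1 in preadipocytes included 1. Against the background, the share of members at or over 2 was near that of all genes in preadipocytes and adipocytes and under it in interstitial progenitors.

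In mural cells 1 of 12 members, Col8a1 with an interval that included 1, was at least 2 (29.4%). In the same class 7 were at most 0.5 (13.5%), and the library labelled WT gave 10 nuclei. With TMM scaling in place of CPM those counts became 3 and 1, and the total ratio in mural cells moved from 0.556 (0.471 to 0.661) to 1.11. In endothelial cells 2 of 13 were at least 2 (26.9%), Col8a1 and Col28a1, and 1 was at most 0.5 (17.7%). The endothelial interval of Col8a1 included 1. The total collagen ratio was 0.687 (0.653 to 0.723) in interstitial progenitors, 0.672 (0.651 to 0.695) in adipocytes and 0.999 (0.896 to 1.12) in endothelial cells. In adipocytes Col5a3 alone gave 52.2% and 9.11% of the collagen UMIs, and without it the ratio turned to 1.28 (1.22 to 1.34). In preadipocytes it was 1.22 (1.20 to 1.24), but it was 0.951 without the Gdf10 and F3 subcluster and 0.883 where each library was clustered on its own.

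The ratio of the libraries moved with the genomic span of genes. In preadipocytes the median log2 ratio was -0.45 over the tenth of genes with the shortest span (median 3.27 kb) and 1.67 over the tenth with the longest (median 226 kb), and in adipocytes it was -0.76 and 1.50. The median over all genes was 0.12 in preadipocytes and 0.10 in adipocytes, and that of the members was 0.34 and -0.02. Collagen genes are long, with median spans of 122 kb and 114 kb over the members compared in those classes. The correction took the median of a gene's span group, and the group of longest genes also held members well under its median span. Among them were Col4a2 (136 kb), Col4a3 (135 kb) and Col4a4 (139 kb) in adipocytes, and Col6a6 (139 kb) in preadipocytes. Their corrected values and directions, and the counts below that include them, depend on the group. Against genes of like span, 0 of 25 preadipocyte members were at least 2 (16.4% of all genes with the same correction) and 7 at most 0.5 (12.3%), and in adipocytes 2 (19.8%) and 5 (12.3%) of 23. The counts were 0 (18.9%) and 6 (12%) of 20 in interstitial progenitors, 1 (20.3%) and 5 (14.6%) of 12 in mural cells and 1 (19.9%) and 5 (15.5%) of 13 in endothelial cells. The correction turned the direction of 11 of 25 members in preadipocytes, 9 of 23 in adipocytes and 5 of 20 in interstitial progenitors, of which 9, 3 and 2 had an uncorrected interval that left out 1. With this correction Col5a3 was at most 0.5 in the 4 classes where it was above lymphocytes, at 0.101 in adipocytes (in endothelial cells, at 14 and 11 UMIs, it was not above them), whereas Col4a5 turned in direction in interstitial progenitors (0.762) and preadipocytes (0.870), and Col6a6 in preadipocytes (0.922).

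**Figure D4:**
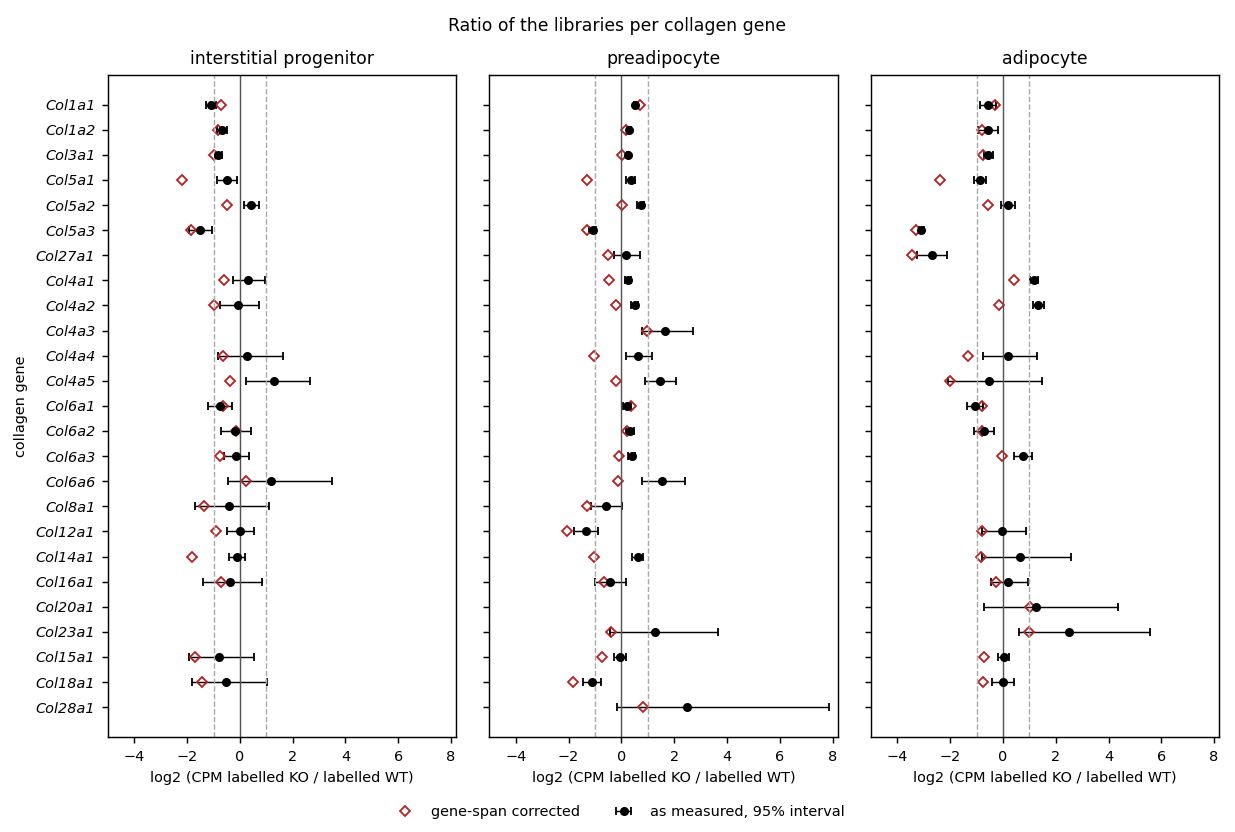
Log2 ratio of the CPM in the library labelled KO over that labelled WT for each collagen gene with UMIs in both libraries, in 3 classes (black points, 95% intervals) and after the median of genes of like span was subtracted (red diamonds); dashed lines mark ratios of 0.5 and 2. Col5a3 lies left of 0 in all 3 classes, furthest in adipocytes. The diamonds of Col4a2 in adipocytes and of Col4a5 in preadipocytes lie on the other side of 0 from their points. That of Col4a2 depends on its span group.

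Preadipocytes were not uniform in collagen. A subcluster with Gdf10 and F3 among its leading genes (p2, 36 and 116 nuclei), which also passed 7 of 12 interstitial progenitor markers, was found in both libraries. Its total collagen level was 52772 CPM (51532 to 54035) in the library labelled WT and 62841 CPM (62291 to 63394) in the library labelled KO. The other preadipocytes stood at 27221 CPM (p3, 140 nuclei labelled WT) and 25692 CPM (p1, 266 nuclei labelled KO), so the ratio was 1.94 (1.88 to 2.00) and 2.45 (2.41 to 2.48). The subcluster p3 also held 5 adipocyte, 5 myeloid and 4 lymphocyte markers, of 12 each, when adipocyte and progenitor subclusters were checked for mixed nuclei, and their part in its levels, that of Col5a3 included, was not tested.

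Most of the higher level in the Gdf10 and F3 subcluster was in the type 1 and 3 chains, and the FACIT chains, at lower levels, had ratios as high. Given as the ratio to the other preadipocytes in the libraries labelled WT and KO, Col1a1 was 2.63 and 4.46, Col1a2 2.93 and 3.74, and Col3a1 1.87 and 2.88. Col14a1 had 5.91 (4.51 to 7.77) and 5.5 (4.82 to 6.30), Col12a1 4.66 and 3.19, and Col16a1 2.35 and 5.26. Col5a3 went the other way at 0.679 (0.559 to 0.818) and 0.690 (0.612 to 0.777), as did Col27a1 at 0.0763 and 0.186. The fibril genes and their surface chains were thus high together, with Col5a3 and Col27a1 as the exceptions among the fibrillar members. Col4a1 differed in direction between the libraries, at 1.39 and 0.857, as did Col8a1 at 8.73 and 0.135, where the 26 UMIs of p2 labelled WT stood against 7 labelled KO.

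**Figure D5:**
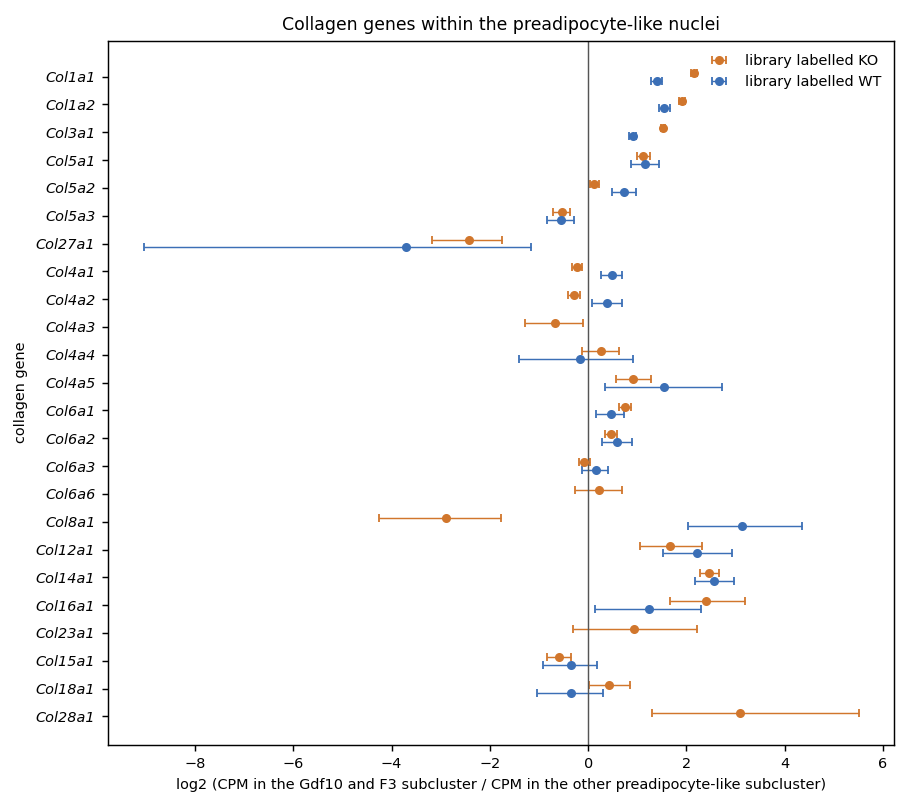
Log2 ratio of the CPM in the Gdf10 and F3 subcluster over that in the other preadipocytes for each collagen gene, in the libraries labelled WT (blue) and KO (orange), with 95% intervals. Col1a1, Col1a2, Col3a1, Col12a1, Col14a1 and Col16a1 lie right of 0 in both libraries, and Col5a3 and Col27a1 left of it.

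Between the libraries, the Gdf10 and F3 subcluster differed in the total by 1.19 (1.16 to 1.22), and the other preadipocytes (p1 over p3) by 0.944 (0.924 to 0.964). Col5a3 was lower in the library labelled KO in both, at 0.498 (0.409 to 0.610) and 0.490 (0.442 to 0.542), and so was Col12a1, at 0.266 and 0.389. Col18a1 was 0.640 (0.406 to 1.05) and 0.376 (0.283 to 0.499). The Col5a3 difference was thus of like size in both. Whether the share of p2 among preadipocyte nuclei bore on the total was not tested.

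How many nuclei carried collagen message was compared after each nucleus was thinned to 1000 UMIs. A fibrillar UMI was seen in 100% of 165 and 384 preadipocytes, in 84.6% (79.6 to 88.8) of 260 and 51.8% (48.4 to 55.1) of 885 adipocytes, and in 66.4% and 58.2% of lymphocytes. At this depth a fibrillar UMI was thus seen in no larger share of adipocytes labelled KO than of lymphocytes. Before thinning, adipocytes and lymphocytes labelled KO held 7.62 and 1.68 fibrillar UMIs per nucleus. Of the fibrillar chains, Col5a1, Col5a2 and Col5a3 were above lymphocytes in these adipocytes by both CPM and UMIs per nucleus. A type 4 UMI was seen in 75.2% (67.8 to 81.5) and 84.6% (80.6 to 88.1) of preadipocytes, in 43.5% (37.3 to 49.7) and 64.7% (61.5 to 67.9) of adipocytes and in 52.4% and 75.5% of endothelial cells, against 14.3% and 18.7% of lymphocytes. Without thinning the adipocyte values were 98.5% and 97.3% for fibrillar and 77.6% and 96.3% for type 4 UMIs. Thinning left out 8 and 5 adipocytes, 11 and 6 preadipocytes, and 1020 and 15 lymphocytes with fewer UMIs.

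Genes that act with collagens were set beside them in 5 lists. Among the 21 enzymes that assemble and modify chains, preadipocytes were highest for 7 of 18 counted genes in the library labelled WT, where mural cells led for 9, and for 14 of 20 in the library labelled KO, against the 7.13% and 13.7% of all genes given above. Serpinh1, the chaperone of procollagen, measured 446 and 829 CPM in preadipocytes, 199.9 and 176 in interstitial progenitors and 157 and 81.2 in adipocytes. Of the 13 processing and cross-linking genes, preadipocytes led for 4 of 8 and 7 of 11, and Adamts2, which trims the amino end of fibrillar chains, measured 329.5 and 385 CPM there. Of the 13 proteoglycans and glycoproteins that bind fibrils, preadipocytes led for 6 of 13 and 9 of 12. Decorin (Dcn) measured 4541 and 6439.8 CPM in preadipocytes and 2239 and 1863 in interstitial progenitors. Dcn, Lum and Fbn1 of this list were also fibroblast markers used in naming the progenitor and preadipocyte clusters. Only collagens were left out of the clustering, so the rank of these genes is not independent of the classes. In the library labelled KO each of these 3 lists thus had most of its counted genes highest in preadipocytes.

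Basement membrane partners and receptors were counted in the same way. Of 10 laminin, nidogen and related genes, preadipocytes led for 6 of 10 and 5 of 10, against 7.13% and 13.7% of all genes, and Lama4, a laminin chain of adipocytes and vessels, was measured at 486 and 709 CPM in adipocytes and 256 and 463 in preadipocytes. Of 10 collagen receptors, preadipocytes led for 0 of 7 and 1 of 8, and mural cells for 4 and 3, against 26.7% and 21.9% of all genes and with 10 mural nuclei in the library labelled WT. Ddr2, a receptor tyrosine kinase for fibrillar collagen, measured 577 and 1166 CPM in interstitial progenitors and 294 and 432 in preadipocytes, the reverse of the order of Col3a1. By ratio of the libraries in preadipocytes, 2 of 19 enzymes, 3 of 11 processing genes, 1 of 12 fibril-binding genes, 2 of 9 basement membrane partners and 2 of 7 receptors were at least 2, against 24.1% of all genes, and 1, 1, 0, 0 and 0 were at most 0.5, against 11.6%.

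The genes whose levels ran most like those of the fibrillar members over the 16 class and library pairs were Thbs2 (Spearman 0.93), Loxl2 (0.92), Ahcyl1 (0.91), Oaf (0.91) and C1s1 (0.90), among 10782 genes. Those most like Col4a1 and Col4a2 were Qsox1 (0.86), Serpinh1 (0.85), Sparc (0.84), Lamb1 (0.84) and Fkbp14 (0.83). The 16 points share 2 libraries and their free RNA, so the values are a description.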

How the data were processed

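Single-nucleus RNA-seq (10x 3′ v3.1) of iWAT was analysed in 2 libraries, 1 per genotype. The authors deposited UMI counts for each gene in each barcode, from Cell Ranger and mm10 per the submitters' processing notes; whether intron reads were counted, and any removal of free RNA, are not given in the sources used here. Each matrix held 31053 genes and 5000 barcodes, with 9376351 (labelled WT) and 19655049 (labelled KO) UMIs. Groups come from the labels, and 12 barcodes were shared.

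Nuclei with at least 500 genes and at most 5% mitochondrial UMIs were kept (3649 and 2944). Scrublet (scanpy 1.11.5) marked 0 and 92 doublets, so the 146 highest scores were removed in the library labelled WT. Merged counts were clustered in Seurat 5.3.0 (R 4.3.3) on 2000 variable genes without collagens, and adipocyte and progenitor clusters were clustered again. Clusters were named by passing markers, under a rule written after the data were seen. Members, lists and markers were chosen with earlier results of these data known. Counts were summed per class and library and scaled to CPM. Levels have exact Poisson, shares exact Clopper-Pearson and ratios exact conditional binomial 95% intervals; a count of 0 was set to 3 UMIs in a ratio. With 1 library per group no test was made, and a ratio of at least 2 or at most 0.5 among genes with at least 20 UMIs stood in for a call. UMIs mark molecules, but intervals leave out the spread between mice and preparations. The ratio script was tested on simulated data. Every member with at least 50 UMIs over the 6 classes could be named, with the 4 of most UMIs in full; genes outside that rule are marked in the text. Gene spans and promoters come from RefSeq tables of GRCm38.p6. Alternatives covered filters, doublets, clustering, scaling (TMM in edgeR 4.0.16), free RNA, gene span and count minimums.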

Additional observations from a re-analysis of the deposited data

Results flagged for a closer look

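Col6a5, a type 6 chain below the count for naming, stood out in nuclei outside the 6 classes. In myeloid nuclei of the library labelled WT it measured 42.9 CPM, from 27 UMIs in 13 of 331 nuclei, with 40.7% of them in 3 nuclei. The highest of the 6 classes there was preadipocytes at 10.6 CPM, and lymphocytes gave 1.17 CPM. In the library labelled KO 1 UMI was seen in 839 myeloid nuclei (0.363 CPM).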

How the results depend on the processing

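Against 86 values that moved, 172 of the values that answer a comparison stayed within the interval or within 1.5 times the count. The total ratio, labelled KO over labelled WT, stayed below 1 in interstitial progenitors under every alternative that gave a value. In adipocytes it did so except without Col5a3, a setting added after seeing the data, which gave 1.28, and it crossed 1 in preadipocytes, mural and endothelial cells. No paired analysis was possible because each group has 1 library and the labels give no replicate numbers.

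By setting, the total ratio in interstitial progenitors was 0.595 (clustering resolution 1.0), 0.624 (each library clustered on its own), 0.779 (TMM), 0.572 (CPM without mitochondrial genes and Malat1) and 0.529 (gene-span correction). In preadipocytes it was 1.01 with doublets kept, 1.25 at resolution 1.0, 0.883 with each library on its own, 0.894 with collagens in the clustering, 1.30 with TMM, 1.02 without mitochondrial genes and Malat1, 1.05 with span correction and, added after seeing the data, 0.951 without and 1.19 with only the Gdf10 and F3 subcluster and 1.26 without Col5a3. In adipocytes it was 0.777 with doublets kept, 0.719 with collagens in the clustering, 0.706 with the lymphocyte level subtracted, 0.759 with TMM, 0.558 without mitochondrial genes and Malat1 and 0.412 with span correction. It was 1.11 with TMM in mural cells, and 0.760 (at least 1000 genes), 1.13 (TMM) and 0.749 (span) in endothelial cells.

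Counts of members at least 2 moved to 1 (without mitochondrial genes and Malat1) and 0 (span) in interstitial progenitors; to 2 (resolution 1.0), 3 (own clustering), 0 (span), 3 (at least 50 UMIs) and 2 (only the Gdf10 and F3 subcluster) in preadipocytes; to 3 (without mitochondrial genes and Malat1) and 2 (span) in adipocytes; to 3 (TMM) in mural cells; and to 1 (without mitochondrial genes and Malat1), 1 (span) and 0 (50 UMIs) in endothelial cells. Counts at most 0.5 moved to 5 (resolution 1.0), 1 (TMM), 5 (without mitochondrial genes and Malat1), 6 (span) and 4 (at least 5 UMIs) in interstitial progenitors, 7 (span) in preadipocytes, 5 (span) and 8 (5 UMIs) in adipocytes, and 1 (TMM) and 3 (50 UMIs) in mural cells. In endothelial cells they moved to 8 (1000 genes), 4 (lymphocyte level subtracted), 2 (without mitochondrial genes and Malat1), 5 (span), 0 (50 UMIs) and 4 (5 UMIs).

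The number of members highest in a class moved, in the library labelled WT, to 0 (interstitial progenitor) and 1 (mural) at resolution 1.0, 5 (adipocyte) and 11 (endothelial) with 1000 genes, 2 (mural) with 100 UMIs and 0 (lymphoid stroma) with doublets kept. In the library labelled KO it moved to 17 (interstitial progenitor), 1 (adipocyte) and 6 (mural) with 1000 genes, 6 (interstitial progenitor) with doublets kept, 5 (interstitial progenitor) with own clustering, 5 (interstitial progenitor) and 2 (mural) with collagens in the clustering, 3 (mural) at resolution 1.0, 2 (mural) and 1 (endothelial) with the lymphocyte level subtracted, and 0 (endothelial) with 100 UMIs. At 500 UMIs per nucleus the fibrillar share was 97.7% and 97.4% in preadipocytes and 63.8% and 31.6% in adipocytes, and the type 4 share 57.4% and 67.9%, and 21.6% and 44.0%. Without thinning the fibrillar share in adipocytes was 98.5% and 97.3%, and the type 4 share 89.2% and 98.2% in preadipocytes and 77.6% and 96.3% in adipocytes.

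Single genes were followed where they had at least 100 UMIs in a class. Of their ratios that were at least 2 or at most 0.5 and had UMIs in both libraries, 5 turned: with span correction Col4a5 in interstitial progenitors (0.762) and preadipocytes (0.870), Col6a6 in preadipocytes (0.922) and Col4a2 in adipocytes (0.897), and at resolution 1.0 Col18a1 in preadipocytes (1.22). The cause was not tested. For Col4a2 and Col6a6 the turn depends on the span group, because both were set against the group of longest genes. With at least 1000 genes no preadipocyte or lymphoid stroma class was named, and 9 interstitial progenitor and 3 mural nuclei were left labelled WT, so these gave no ratio; nor did mural cells with own clustering, where 0 nuclei labelled WT were named. Depth limited members under 20 UMIs, above all in mural cells labelled WT.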
